A study of Mus musculus with 8 samples.

Results

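The 37 genes described here encode parts of the primary cilium and of intraflagellar transport (IFT), out of 23669 genes with a symbol on the array. They were taken by symbol from the probe annotation that the authors deposited, and each had 1 probe there. The group was picked because Ift57 differed between the rostral and caudal pools, so the rostral against caudal values of these genes are a description: no p is given for them, and counts of calls are printed beside the share over all genes with nothing read from them. Expression was measured in Gfp-positive cells sorted from the ventral midbrain of mouse embryos at day E14.5, in 4 rostral and 4 caudal pools. All embryos were Pitx3(gfp/+), carrying a Gfp reporter on 1 allele of Pitx3, the gene of a homeodomain factor that, within the brain, is found in midbrain dopaminergic neurons. Each pool held cells of 5 to 7 embryos and was hybridised in Cy3 against a Cy5 reference of Gfp-negative cells from the same embryos, on 8 arrays. The sex of the embryos was not given, the reference was a mixture of every other sorted cell, and the dyes were not swapped, so a dye effect could not be told apart from a difference between sorted cells and reference.

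The primary cilium is a single antenna of microtubules that most cells, neurons and neural progenitors included, grow from a centriole. IFT trains, built from the IFT-A and IFT-B complexes, carry its parts outward with kinesin-II and back with dynein-2, while the BBSome moves membrane proteins and the transition zone at the base acts as a gate. In vertebrates Hedgehog signals, which pattern the ventral midbrain, pass through this organelle, and regulatory factors of the RFX family switch on many of its genes by binding a site called the X-box.

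The X-box is shown first because the promoter of Ift57 holds it. RefSeq promoter windows (build GRCm38.p6, 250 bases before to 50 after the start) were found for 33 of the 37 genes, with 37 windows in all, and not for Ift80, Ift81, Ift122 and Dync2li1. The letters searched were GTTNCC and GGNAAC in this order with 0 to 3 letters between, a palindromic pattern that reads alike on both strands. It stood in 6 of the 37 windows (16.2%), against 264 of 32851 windows of the whole table (0.804%). Its first part alone, GTTNCC on either strand, overlaps the full pattern and stood in 29 windows (78.4%), against 45.3% of all windows. The 6 matches are printed with up to 8 letters on each side, 5′ to 3′ on the strand of the gene, with the pattern in capitals.
Ift57 (chr16:49699226-49699254, plus strand): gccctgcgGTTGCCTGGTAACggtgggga
Tctn3 (chr19:40612351-40612379, minus strand): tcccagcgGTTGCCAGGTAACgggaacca
Bbs7 (chr3:36613489-36613518, minus strand): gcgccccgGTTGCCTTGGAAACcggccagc
Mks1 (chr11:87853183-87853212, plus strand): gcgtctccGTTGCCAGGGGAACgaggcacc
Tctn1 (chr5:122264411-122264432, minus strand): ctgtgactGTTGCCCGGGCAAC
Ahi1 (chr10:20952560-20952589, plus strand): tagtctgaGTTACCTAGGCAACagcggcag
The match of Ift57 lay at bases -60 to -48 from the RefSeq start, that of Mks1 at -24 to -11, that of Bbs7 at -121 to -108 and that of Tctn3 at -140 to -128, while those of Tctn1 (37 to 50) and Ahi1 (22 to 35) lay behind it. These are matches of letters only, and the 6 genes did not share a direction in the sorted cells, as the values below show.

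The array gave a log2 ratio per gene and pool, the level in Gfp-positive cells over the level in the reference, so 1 is a 2-fold rise and 0 is no difference. Within each array the ratios were set so that the typical probe was at 0. All 37 genes were measured well enough to be tested: 36 were well above background in all 8 pools, and Arl13b was in 7. The reference was well above background on all 8 arrays for 36 genes and on 0 for Cep290. The number of arrays limits the precision, and the p-values speak only to how far these pools varied. Over all genes, 62.5% to 70.4% of probes had a Cy3 signal well above background, and between arrays the ratios had correlations across genes of 0.80 to 0.90, where genes are no independent replicates. Of the 10 dopaminergic markers, all 10 were higher in Gfp-positive cells, among them Th at 3.34 and Slc6a3 at 5.98, which checks the sort. Pitx3 was at 3.58, but the cells were sorted by a reporter on this gene, so its value is no independent check.

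Against the reference, the cilium genes of the Gfp-positive cells split into risers and fallers of modest size. Kif3a, a motor subunit of kinesin-II, was 1.75-fold higher, and Ift81, an IFT-B subunit that binds tubulin, was also 1.75-fold higher. Kif7, a kinesin of the ciliary tip that regulates Gli factors, was 2.03-fold lower, and the IFT-B genes Ift80 and Ift74 were 1.90-fold and 1.88-fold lower. By limma with Benjamini-Hochberg adjustment over 17880 genes, 16 of the 37 genes were higher, 13 lower and 8 not called. The 29 calls made 78.4% of the group, beside 70.2% of all genes. Over all genes 34.3% were called higher and 35.9% lower, so the shares of 43.2% and 35.1% among the cilium genes were near the background, and their median ratio was 0.05 beside 0.00 over all genes. The mean over 8 pools passed 2-fold for 1 gene of the 37 (2.70%, Kif7), against 12.6% of all genes. All 8 pools lay above the reference for 11 genes and below it for 6, together 45.9% of the 37, against 51.2% of all genes. With each array centred on its median in place of the loess curve, 23 were called higher and 7 lower, the median of all genes then standing at 0.13. In cells sorted in bulk, fewer cells of a type and less RNA per cell cannot be told apart.

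**Figure D1:**
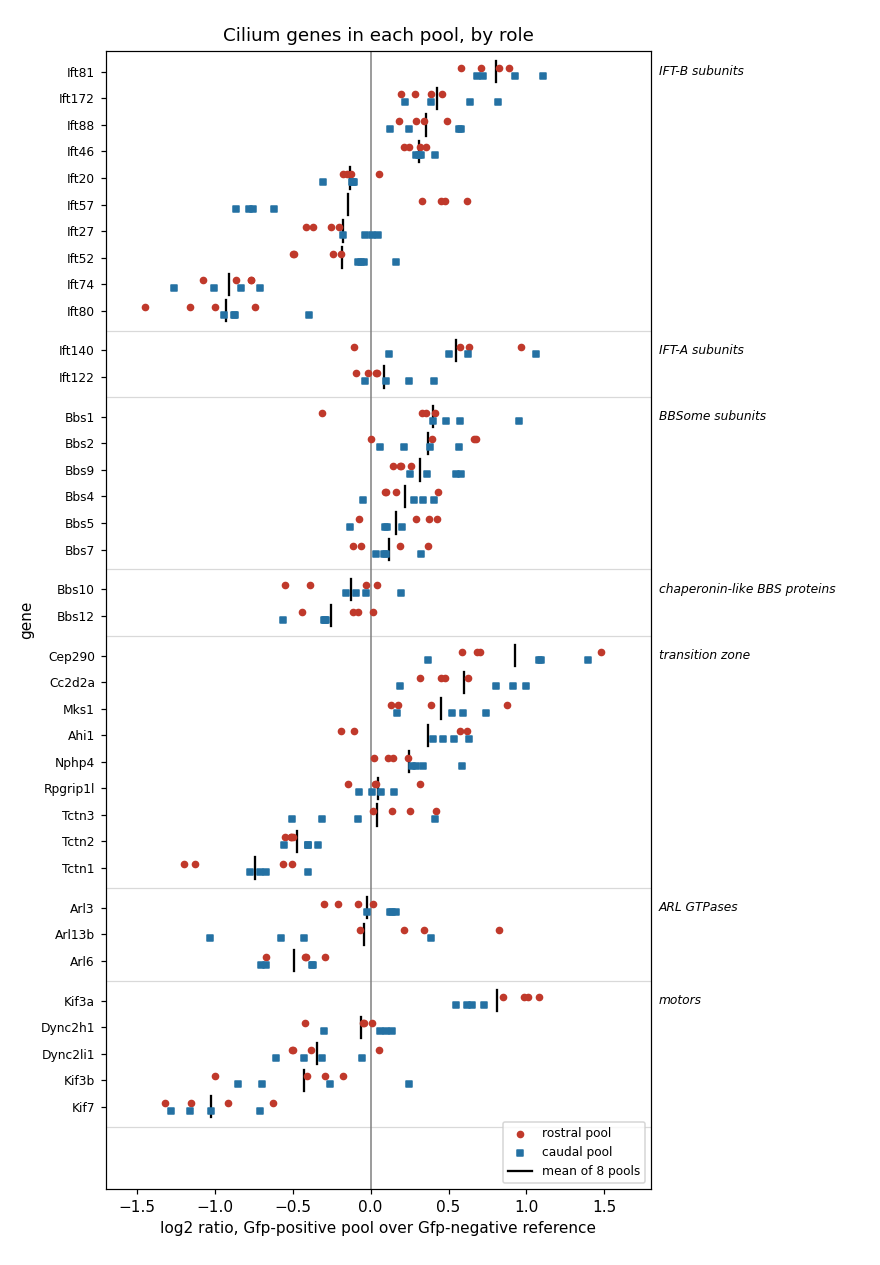
Log2 ratio of each Gfp-positive pool over the Gfp-negative reference (x axis) for the 37 genes (y axis), grouped by role, with rostral pools as circles, caudal pools as squares and the mean of the 8 pools as a black bar. Most genes have both kinds of pool intermingled, while the rostral pools of Ift57 lie between 0.33 and 0.62 and its caudal pools between -0.86 and -0.62.

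The 10 IFT-B subunits went both ways. Ift81 stood at 0.71, 0.82, 0.89 and 0.58 in rostral pools 1 to 4 and at 0.93, 0.68, 0.72 and 1.11 in caudal pools 1 to 4 (mean 0.80, SE 0.08, limma adjusted p = 7.01e-06). Its partner Ift74, with which it forms the tubulin-binding dimer of the train, stood at -1.08, -0.86, -0.77 and -0.76 in rostral pools and at -1.01, -1.26, -0.83 and -0.71 in caudal pools (mean -0.91, SE 0.06, adjusted p = 8.86e-07). All 8 pools thus lay above the reference for Ift81 and all 8 below it for Ift74, with the parts overlapping for each gene. Ift80 stood at -1.45, -1.16, -1.0 and -0.74 in rostral and at -0.87, -0.94, -0.88 and -0.39 in caudal pools (mean -0.93, SE 0.08, adjusted p = 5.50e-06). Ift172, the largest subunit, stood at 0.28, 0.46, 0.19 and 0.39 in rostral and at 0.82, 0.22, 0.38 and 0.64 in caudal pools (mean 0.42, SE 0.07, adjusted p = 0.000436). Both were on 1 side of the reference in all 8 pools. Ift88, the subunit whose mutation gives mice polycystic kidneys, was higher at 0.35 (SE 0.06, adjusted p = 0.000388), and Ift46, a core subunit, at 0.31 (SE 0.03, adjusted p = 4.17e-06). Small falls were called for Ift20, which also works at the Golgi (-0.13), for the small GTPase Ift27 (-0.17) and for the core subunit Ift52 (-0.18). For Ift20 and Ift52 the sign turned with median centring in place of loess (0.05 and 0.14). Ift52 was then called higher, so its direction depended on the normalization. Ift57, a peripheral subunit also called Hippi for its binding to the huntingtin-interacting protein Hip1, was called lower as a mean of 8 pools (-0.14, SE 0.04, adjusted p = 0.00829). That mean joins rostral and caudal pools of opposite sign, described below, and with median centring it stood at 0.02.

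The 2 IFT-A subunits, which serve the return journey and the entry of membrane proteins, were at or above the reference. Ift140 stood at 0.97, 0.63, -0.10 and 0.58 in rostral and at 0.12, 1.06, 0.50 and 0.63 in caudal pools (mean 0.55, SE 0.13, adjusted p = 0.00387). Of its 8 pools 7 lay above the reference. Ift122 was at 0.08 (SE 0.05, adjusted p = 0.129).

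Of the 6 BBSome subunits in the group 5 were higher and 0 lower by the probes used, over a range of 0.11 to 0.40. Beside this, 34.3% of all genes were called higher and 35.9% lower, and nothing is read from a count of so few genes. Bbs1, the subunit that binds the recruiting GTPase Arl6, stood at 0.33, 0.42, 0.36 and -0.31 in rostral and at 0.57, 0.48, 0.40 and 0.95 in caudal pools (mean 0.40, SE 0.10, adjusted p = 0.00466). Rostral pool 4 alone lay below the reference. By another probe Bbs1 was at 0.09 and not called (limma adjusted p = 0.0993). Bbs2 was at 0.37 (adjusted p = 0.00613), Bbs9 at 0.32 (adjusted p = 5.51e-05), Bbs4 at 0.22 (adjusted p = 0.00692) and Bbs5 at 0.16 (adjusted p = 0.0447). Bbs7, at 0.11, did not pass (adjusted p = 0.19). The call of Bbs5 was lost in 8 of the 20 other settings. Among these were the fits without any of 6 single pools, rostral 1, 2 or 3 or caudal 1, 2 or 3 (0.13 to 0.16). Bbs10 and Bbs12, chaperonin-like proteins that help the BBSome to assemble, were at -0.13 (adjusted p = 0.203) and -0.26 (adjusted p = 0.00455). By another probe, described below, Bbs10 was lower, at -0.33. For Bbs12 the sign turned with median centring (0.11). The small GTPase Arl6 itself was lower, at -0.42, -0.29, -0.67 and -0.42 in rostral and -0.38, -0.37, -0.67 and -0.70 in caudal pools (mean -0.49, SE 0.06, adjusted p = 4.00e-05). It thus lay below the reference in all 8 pools. The BBSome subunits Ttc8 and Bbip1, outside the group, were near the reference (0.04 and 0.02) and not called.

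The transition zone held 5 genes called higher, 2 lower and 2 not called, beside 34.3% of all genes called higher and 35.9% lower. Cep290, which links the membrane of the gate to its microtubules, stood at 0.70, 0.68, 1.48 and 0.58 in rostral and at 1.09, 1.08, 0.37 and 1.40 in caudal pools (adjusted p = 0.000121). Its reference signal was not well above background on any array, so the size of the difference is uncertain. With the reference held to a floor, Gfp-positive cells were 1.88-fold higher, close to the mean log2 ratio of 0.92 (SE 0.13). This fold is an estimate with the spread of the pools and no strict minimum. That fold sets the mean of the 8 pools against the mean over arrays of the higher of the probe's own reference signal and the lowest signal well above background, per channel after loess and Aquantile, and it is open to dye bias. In the signals processed by the scanner software, which carry no offset, the mean log2 ratio was 2.68, a size that rests on the same dim reference. Cc2d2a, a coiled-coil protein of the same gate, stood at 0.48, 0.45, 0.32 and 0.62 in rostral and at 0.91, 0.19, 1.00 and 0.80 in caudal pools (mean 0.60, SE 0.10, adjusted p = 0.000343). Another probe of Cc2d2a, taken when probes were named by accession first, turned the sign (-0.09, adjusted p = 0.579). Mks1, whose human counterpart is mutated in Meckel syndrome, stood at 0.18, 0.13, 0.87 and 0.39 in rostral and at 0.60, 0.17, 0.52 and 0.74 in caudal pools (mean 0.45, SE 0.09, adjusted p = 0.0018). By the probes used, all 8 pools of these 3 genes lay above the reference. Ahi1, the mouse gene of jouberin, was at 0.37 (SE 0.11, adjusted p = 0.0113) and the nephrocystin gene Nphp4 at 0.25 (SE 0.05, adjusted p = 0.00123).

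Of the 3 tectonic genes of the gate, Tctn1 and Tctn2 were lower and Tctn3 was not called. Tctn1 stood at -1.19, -0.56, -0.50 and -1.12 in rostral and at -0.40, -0.78, -0.71 and -0.67 in caudal pools (mean -0.74, SE 0.09, adjusted p = 5.60e-05). Tctn2 stood at -0.55, -0.51, -0.51 and -0.50 in rostral and at -0.34, -0.56, -0.40 and -0.40 in caudal pools (mean -0.47, SE 0.03, adjusted p = 1.09e-06). Every pool of both genes lay below the reference. Tctn3 was at 0.04 (adjusted p = 0.708) and Rpgrip1l, a scaffold of the gate, at 0.05 (adjusted p = 0.479). Of the 6 genes with an X-box match, Mks1 and Ahi1 were thus called higher, Tctn1 lower, and Bbs7 and Tctn3 not called, and Ift57 differed by part.

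Of the 2 kinesin-II motor subunits in the group, Kif3a was called higher and Kif3b lower, the call of Kif3b depending on the processing. Kif3a stood at 0.99, 1.01, 1.08 and 0.85 in rostral and at 0.65, 0.55, 0.62 and 0.73 in caudal pools (mean 0.81, SE 0.03, adjusted p = 1.11e-08). Kif3b, the motor subunit it pairs with on cilia, stood at -1.0, -0.18, -0.29 and -0.41 in rostral and at -0.85, -0.26, 0.25 and -0.69 in caudal pools (mean -0.43, SE 0.14, adjusted p = 0.017). Kif3a was above the reference in 8 of 8 pools and Kif3b below it in 7 of 8. The call of Kif3b was lost in the signals processed by the scanner software (-0.41, adjusted p = 0.0502) and with median centring (-0.23, adjusted p = 0.189). In neither part alone was Kif3b called (limma adjusted p = 0.0582 in rostral and 0.107 in caudal pools). Its other probe, partly dim, averaged -0.06. Kif3c, an alternative partner of Kif3a in neurons, was at 0.48 (adjusted p = 3.69e-07), and Kifap3, the adaptor of the complex, at 0.10 (adjusted p = 0.00728). Dync2li1, the light intermediate chain of dynein-2, stood at -0.38, 0.05, -0.50 and -0.50 in rostral and at -0.05, -0.42, -0.31 and -0.60 in caudal pools (mean -0.34, SE 0.09, adjusted p = 0.00708), while its heavy chain Dync2h1 was at -0.06 (adjusted p = 0.383). With median centring Dync2li1 stood at -0.04 (adjusted p = 0.738).

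Kif7 stood at -1.15, -0.92, -1.32 and -0.62 in rostral and at -1.16, -1.28, -1.02 and -0.71 in caudal pools (mean -1.02, SE 0.09, adjusted p = 5.58e-06). All 8 pools lay below the reference, with no separation of the parts, and the signals processed by the scanner software gave -1.72. Among Hedgehog genes, Smo, the signal transducer that enters the cilium, was at -1.73 (SE 0.05) and Boc, a co-receptor, at -1.84 (SE 0.11). Gli3 was at -2.31 over the 8 pools, a mean of unlike parts: it averaged -3.46 ± 0.16 in rostral and -1.17 ± 0.22 in caudal pools (SD, n = 4 each), which did not overlap. Gli2 was at -1.83 (SE 0.07), but just 1 pool had it above background. Of the 9 tested Hedgehog transduction genes, 6 were lower and 2 higher, with a median of -1.73. The other GTPases, Arl3, which frees lipid-bound cargo inside the cilium, and Arl13b, which activates Arl3, were at -0.02 (adjusted p = 0.727) and -0.04 (adjusted p = 0.814).

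Markers of radial glia and of dividing cells lay far on the side of the reference. All 8 radial glia markers were lower in Gfp-positive cells (median -3.35), the mean ratio over the list ranging from -3.51 to -2.99 in rostral and from -3.49 to -3.03 in caudal pools, and all 8 tested markers of cycling cells were lower too (median -2.04). Of 14 tested markers of multiciliated and ependymal cells 9 were lower and 2 higher, Foxj1, the factor that switches on motile cilia, being at -2.37, and Dnah9 (Dnahc9 on the array), an axonemal dynein, at 2.74. Of 8 markers of neurons of any kind 6 were higher and 1 lower (median 0.35). The part of these cell types in the ratios of the cilium genes was not tested.

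Other cilium genes gave a like picture. In 5 lists with 72 genes, 65 were tested, 25 of them higher (38.5%) and 17 lower (26.2%), with a median of 0.04. Over all genes 34.3% were called higher and 35.9% lower. Among other IFT genes, 7 of 17 were higher and 5 lower. Wdr34, an intermediate chain of dynein-2, was at 0.52 (SE 0.05), whereas the IFT-B genes Ttc30a1 and Ttc30b were at -0.61 (SE 0.06) and -0.57 (SE 0.06), and Ift43 of IFT-A (1700019E19Rik on the array) was at -0.43 (SE 0.04). The Ttc30 gene Ttc30a2 went the other way, at 0.27 (SE 0.11, adjusted p = 0.046). The Ttc30 genes are near copies of each other, and whether their probes tell them apart was not tested. In the transition zone and basal body list 9 of 24 were higher, among them Ttbk2, the kinase that starts cilium growth (0.73, SE 0.07), and Iqcb1 (0.69, SE 0.06), and 6 were lower, among them B9d1 (-0.86, SE 0.05) and Tmem237 (Als2cr4 on the array, -0.89, SE 0.08). Of 7 other genes grouped with the BBSome 3 were higher and 1 was lower, the chaperonin-like Mkks at -0.49 (SE 0.06). The higher ones were Sdccag8 at 0.85 (SE 0.11), Wdpcp (AV249152 on the array) at 0.35 and Ccdc28b at 0.17, which are not subunits of the complex. For Sdccag8 the reference passed background on only 2 arrays. The subunits Ttc8, at 0.04 (adjusted p = 0.713), and Bbip1, at 0.02 (adjusted p = 0.796), were not called.

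Of 12 tested genes of the ciliary membrane and its cargo carriers, 4 were higher and 3 lower. Inpp5e, the phosphatase that sets the lipids of the ciliary membrane, was at 0.68 (SE 0.10), the channel gene Pkd2 at 0.57 (SE 0.04), Rpgr at 0.41 (SE 0.05) and Arl2bp at -0.38 (SE 0.02). Adcy3 and Mchr1, which encode a cyclase and a receptor of neuronal cilia, each passed background in 3 pools and never in the reference, and were not tested. Of 5 tested regulators of ciliary genes 2 were higher, Rfx1 at 0.88 (SE 0.04) and Rfx7 at 0.60 (SE 0.09), and 2 were lower, Foxj1 at -2.37 (SE 0.09) and Mcidas (Gm6320 on the array) at -0.31 (SE 0.08). Rfx2, at 0.12, was not called. Rfx3 was too dim to test, and Rfx4 was left out because its spot was marked as an outlier on 1 array. In the list of centriole duplication and cilium disassembly 6 of 11 genes were lower, led by Nde1 (-2.76, SE 0.10), Plk1 (-2.20, SE 0.10) and Aurka (-1.34, SE 0.07), and 2 were higher.

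**Figure D2:**
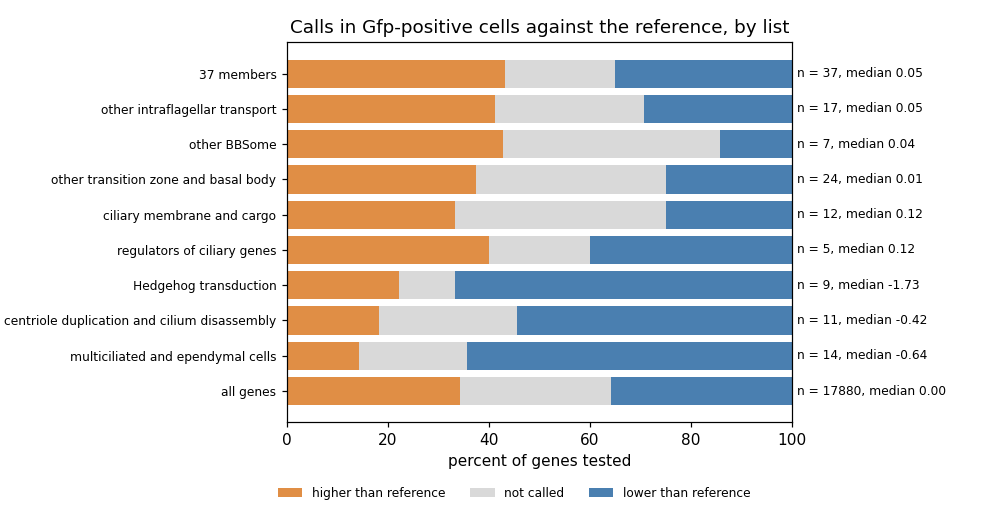
Share of tested genes called higher than, lower than or not different from the reference in Gfp-positive cells (x axis, percent of genes tested) for the 37 genes, 7 pathway lists, a marker list and all genes (y axis); the number tested and the median log2 ratio stand at the right. The 37 genes, with a median of 0.05, lie close to all genes, while the Hedgehog list has a median of -1.73.

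Each part was also set against the reference. In rostral pools 13 of the 37 genes were called higher and 9 lower, beside 28.8% and 30.9% of all genes (59.7% together), and in caudal pools 15 were higher and 10 lower, beside 27.2% and 30.7% (57.9% together). Both comparisons share the reference. Without rostral pool 2 the rostral count of higher genes was 8. The median over the 37 genes was 0.13 in rostral and 0.07 in caudal pools.

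Ift57 was the gene through which the group was picked, and its values are a description. It stood at 0.33, 0.62, 0.45 and 0.48 in rostral pools 1 to 4 and at -0.78, -0.86, -0.76 and -0.62 in caudal pools 1 to 4. Every rostral pool lay above the reference, every caudal pool lay below it, and the parts did not overlap. The means were 0.47 ± 0.12 in rostral and -0.76 ± 0.10 in caudal pools (SD, n = 4 each), a difference of 1.22, or 2.34-fold higher in rostral pools. By size of the difference it took place 220 among 17415 genes. In the first row of the slide, with 2 pools of each part, the difference was 1.30, and in the second row it was 1.15. Over 20 other settings and left-out pools it ranged from 1.14 to 1.27. The rank, the rows and the settings all rest on the values by which the gene was picked, so they are no independent support for its difference. No other probe of Ift57 was named on the array, so the value rests on a single probe. The RefSeq sequence before its start (GRCm38.p6, chr16:49699044-49699293, plus strand, the 250 bases before the start), with the X-box match in capitals, reads as follows.
Ift57 promoter: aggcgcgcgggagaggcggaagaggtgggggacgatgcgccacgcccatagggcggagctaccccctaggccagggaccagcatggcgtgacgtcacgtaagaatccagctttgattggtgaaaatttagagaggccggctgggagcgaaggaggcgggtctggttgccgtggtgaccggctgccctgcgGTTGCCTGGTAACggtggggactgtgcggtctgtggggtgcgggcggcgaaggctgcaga

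Among the other 36 genes the differences between rostral and caudal pools were smaller. Kif3a, whose values per pool are given above, averaged 0.98 ± 0.10 in rostral and 0.64 ± 0.07 in caudal pools, and its lowest rostral pool (0.85) lay above its highest caudal pool (0.73). Ift52 stood at -0.24, -0.19, -0.50 and -0.49 in rostral and at -0.04, -0.08, 0.16 and -0.06 in caudal pools, all rostral pools below all caudal ones. Ift27 (-0.31 ± 0.10 in rostral, -0.04 ± 0.10 in caudal pools) and Nphp4 (0.13 ± 0.09 and 0.37 ± 0.15 in the same order) also did not overlap, both being higher in caudal pools. Arl13b had a larger mean difference, 0.74, but its pools stood at 0.34, 0.82, -0.07 and 0.21 in rostral and at -0.43, -1.03, 0.39 and -0.57 in caudal pools, so that the parts overlapped. Bbs1 was 0.40 lower on average in rostral pools with overlapping parts, and Tctn3 stood at 0.42, 0.25, 0.02 and 0.14 in rostral and at 0.41, -0.08, -0.51 and -0.31 in caudal pools.

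Counted over the group, the parts did not overlap for 5 of the 37 genes (13.5%), 2 higher in rostral and 3 in caudal pools, beside 11.9% of all 17415 genes tested (6.13% higher in rostral and 5.79% in caudal pools). The fit over all genes called 5.79% of them between the parts, 3.21% higher and 2.58% lower in rostral pools. Its calls among the 37 were 2 (5.41%), Ift57 and Kif3a, both higher in rostral pools. The group was picked on this difference of Ift57, so that count is no test and nothing is read from it. The median rostral minus caudal difference was -0.08 over the 37 genes and 0.01 over all genes. Of 65 other cilium genes tested between the parts 1 was called higher and 2 lower in rostral pools, beside 3.21% and 2.58% of all genes. Cluap1, the IFT-B subunit also called Ift38, averaged 0.29 in rostral and -0.03 in caudal pools. Ift43 averaged -0.63 in rostral and -0.23 in caudal pools, and Tmem17 of the transition zone list averaged -0.002 and 0.65 in the same order. Traf3ip1, a further partner in the peripheral part of IFT-B, was well above background on no array in either channel. The parts also differed in cell markers. All 4 hypothalamic markers were higher in rostral pools, their mean ratio lying between -2.34 and -1.24 in rostral and between -4.82 and -4.47 in caudal pools. Of these, Pmch and Fezf1 were each well above background in only 1 caudal pool, so the caudal mean rests partly on dim signal. The platelet genes Pf4 and Ppbp had a mean ratio of 2.84 to 3.71 in rostral and of 0.61 to 2.42 in caudal pools. Of the 10 dopaminergic markers, 3 were called lower in rostral pools. The part of these differences in the value of Ift57 was not tested.

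**Figure D3:**
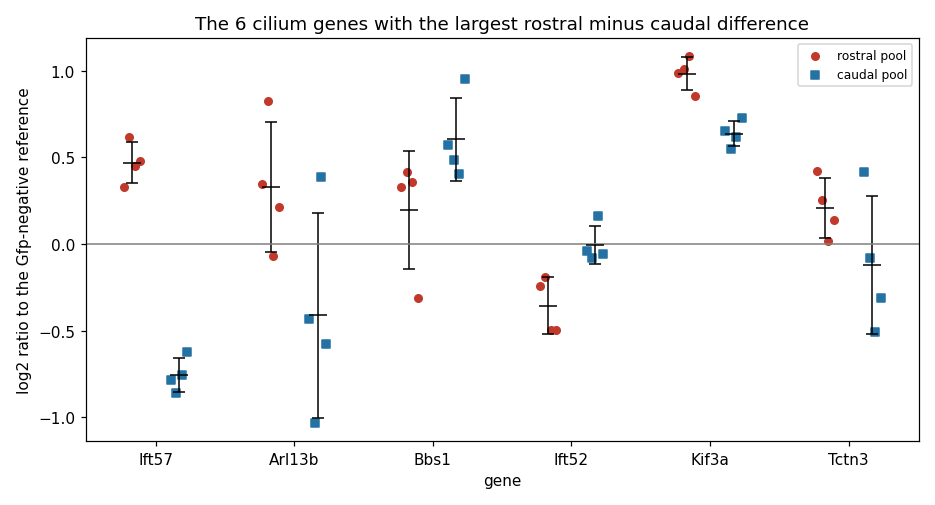
Log2 ratio to the Gfp-negative reference (y axis) of the 6 genes of the group with the largest rostral minus caudal difference (x axis), rostral pools as circles left of caudal pools as squares, with mean and SD of 4 pools in black. Ift57, Ift52 and Kif3a have no overlap between the parts, while Arl13b, Bbs1 and Tctn3 do.

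Other probes on the array, named through their accession and not through the annotated symbols, measured 13 of the 37 genes a second time. For 11 of these the other probe was well above background on at least 4 of 8 arrays in each channel, and its mean ratio had the sign of the first probe for 8 genes and the opposite sign for 3. Kif3a was at 0.85 by its other probe and Arl6 at -0.49. Between the parts that probe of Kif3a stood at 0.96, 0.94, 1.31 and 0.53 in rostral and at 0.78, 0.71, 0.85 and 0.72 in caudal pools. These overlapped, rostral pool 4 lying below every caudal pool, and the difference of means was 0.17, beside 0.35 by the probe used. Cc2d2a was at -0.09 by its other probe, beside 0.60, and Bbs7 at -0.21, beside 0.11, so the rise of Cc2d2a was not seen by both of its probes. Arl13b was at 0.14, with 0.16 in rostral and 0.13 in caudal pools, so the large difference between parts was seen by 1 of its 2 probes. The other probe of Bbs1 gave 0.09, which was not called when it stood for the gene (adjusted p = 0.0993). That of Bbs10 gave -0.33, beside -0.13, and was called lower when it stood for the gene (adjusted p = 0.0030). It stood at -0.40, -0.58, -0.66 and -0.62 in rostral and at -0.13, -0.30, -0.12 and 0.21 in caudal pools. The parts thus did not overlap by this probe, while they overlapped by the probe used. The other probe of Kif7 was well above background on 0 of 8 arrays in either channel. That of Kif3b averaged -0.06, with pools of both signs, and passed background in 6 pools and in 3 of the reference channels.

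**Figure D4:**
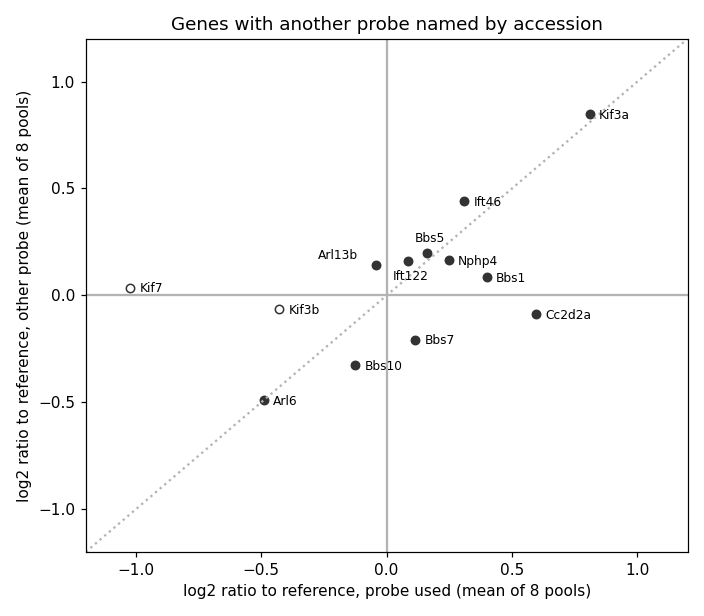
Mean log2 ratio over 8 pools by the probe used (x axis) and by the other probe (y axis) for the 13 genes with another probe named by accession; open circles mark other probes that were well above background on fewer than 4 arrays in a channel, and the dotted line marks equal values. Kif3a and Arl6 lie near the line, while Cc2d2a is at 0.60 by the probe used and -0.09 by the other.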

How the data were processed

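The deposited scanner files hold median spot and background intensities per channel, which, per the file headers, the authors obtained from Feature Extraction 10.7.3.1, and processed intensities that this software had background-subtracted, detrended and dye-normalized. Other deposited columns flag outlier, saturated and background-level spots. The 8 arrays came from 1 slide, scanned once. The submitters' processing notes also list RMA, without its role. A deposited table of the series gave only probe symbols, its 8 value columns matching no sample label. Groups came from the labels, which name a pair of sorter models without saying which pool went through which.

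Analysis used R 4.3.3 and limma 3.58.1. Background was corrected by normexp (offset 50), arrays were normalized by loess with control and outlier spots at weight 0, and log2 ratios of Cy3 over Cy5 were averaged per probe (62976 spots, 55681 probes). The brightest probe stood for a gene. Testing required a probe well above background on at least 4 of 8 arrays, in either channel against the reference and in Cy3 between parts, and had a value on every array. limma (lmFit, eBayes with intensity trend, no block) was fitted over all genes, with 2-sided p-values adjusted by Benjamini-Hochberg, called below 0.05; the reference is 1 control sample whose own spread is left out. The fit was tested on simulated data. The fit did not pair pools by replicate number. Same-numbered pools did not deviate together across genes (correlations of -0.06 to 0.02), which does not show whether they shared embryos. List genes absent from the array's symbols were matched by RefSeq synonyms (17 genes). Values per pool are printed for Ift57, the 8 largest rises and falls among called genes and the 6 largest differences between parts, and from lists up to 4 genes with the smallest p, beside genes that the text sets against a member, which were chosen after their values were seen. The members and lists were chosen with earlier results of these data known. Alternatives were other background corrections, normalizations, filters, probes, names, blocks and left-out pools.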

Additional observations from a re-analysis of the deposited data

Results flagged for a closer look

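Some values stood apart from the other 3 pools of their part by Dixon's criterion for 4 values (0.829), which chance passes in about 1 of 20 groups; here it was passed in 8 of 74. In rostral pools these were Bbs1 in pool 4 (-0.31), Cep290 in pool 3 (1.48) and Dync2h1 in pool 4 (-0.42). In caudal pools they were Ift20 in pool 2 (-0.31), Ift52 in pool 3 (0.16), Ift80 in pool 4 (-0.39), Bbs12 in pool 4 (-0.56) and Dync2h1 in pool 2 (-0.30).

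Ift57 lay above the reference in every rostral pool and below it in every caudal pool, with a difference of 1.22. The gene was chosen for this difference, so it is a description and no p is given.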

How the results depend on the processing

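The cilium genes were refitted under 20 other settings, and 20 of the 37 kept direction and side of the threshold against the reference in all of them. With median centring in place of loess, 7 were called lower against the reference over both parts, 21 higher in rostral and 5 lower in caudal pools, the whole table having shifted up. Signs then turned for Ift20 (0.047), Ift52 (0.14), Ift57 (0.024), Bbs12 (0.11), Arl3 (0.34), Arl13b (0.022) and Dync2h1 (0.17). Ift52, called lower in the main fit, was called higher here. Naming probes by accession first turned Bbs7 (-0.21), Cc2d2a (-0.088) and Arl13b (0.14), and the processed scanner signals turned Arl3 (0.16). Leaving out a pool in turn gave -0.047 to 0.11 for Tctn3, which turned without caudal pool 1, -0.047 to 0.0053 for Arl3, which turned without rostral pool 4, and -0.17 to 0.062 for Arl13b, which turned without rostral pool 3 (0.025) or caudal pool 2. Leaving out each pool in turn, 8 to 14 genes were higher in rostral pools, and 0 to 1 were called lower in rostral than in caudal pools. With the replicate block, whose same-numbered pools did not deviate together (correlations of -0.06 to 0.02), and with no intensity trend, the calls between parts changed. Then 1 gene, Ift57, was called higher in rostral than in caudal pools in place of 2, Kif3a no longer being called. The group was picked on Ift57, so nothing is read from its call. With the processed scanner signals, and with probes well above background on all 8 arrays, 1 was called lower in place of 0. The causes were not tested. Dim signal limits Cep290, whose reference was not well above background on any array.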
